A study of Mus musculus with 6 samples.

Results

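The genes described here are 8 members of the tumour necrosis factor (TNF) and TNF receptor superfamilies, taken by name from a table of unique molecular identifier (UMI) counts in single CD8 T cells of mouse tumours. They are the receptor genes Tnfrsf4 (OX40), Tnfrsf9 (CD137), Tnfrsf18 (GITR) and Cd27, and the ligand genes Tnfsf8 (CD30 ligand), Cd40lg (CD40 ligand), Fasl (Fas ligand) and Ltb (lymphotoxin beta). All 8 had counts, out of 15601 genes in the table.

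The cells came from tumours of MB49, a mouse urothelial carcinoma cell line, grown under the skin of wild-type C57BL6 hosts. The labels list 3 biological replicates from females and 3 from males, the groups the study compared, and name no other treatment. Whether a replicate is 1 animal or a pool is not stated. Both sexes share the tumour line, the host strain, removal of the tumour on day 10 and a sort for live cells with CD3 and CD8 and without CD4. The labels put the age at 6 weeks at inoculation in one place and at 6 to 8 weeks in another. The sort was for cells with CD3 and CD8 alone, so the cells that carry many of the partner ligands and receptors, such as dendritic cells and B cells, were not measured.

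TNF receptor superfamily members of this group are costimulatory receptors. OX40, CD137 and GITR rise on T cells after the T cell receptor has been engaged, while CD27 is already present on resting T cells, and all signal through TRAF adaptors to NF-kB. Their ligands sit mostly on antigen-presenting cells, and activated T cells can in turn carry superfamily ligands of their own. Fas ligand triggers death of cells that carry Fas, CD40 ligand is known above all from CD4 T helper cells, CD30 ligand binds CD30 (Tnfrsf8), and lymphotoxin beta joins lymphotoxin alpha in a membrane complex that binds the lymphotoxin beta receptor. CD137 is used as a marker of T cells that have recently met antigen, in tumours as elsewhere.

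In the mouse genome (GRCm38, GENCODE M21) 4 of the 8 genes lie on chromosome 4. Tnfrsf4 (chr4:156013843-156016612, plus strand) and Tnfrsf18 (chr4:156026164-156028895, plus strand) are neighbours, 9552 bases apart. Tnfrsf9 lies at chr4:150914562-150946102 on the plus strand and Tnfsf8 at chr4:63831308-63861347 on the minus strand. Cd27 lies at chr6:125232622-125237010 (minus strand), Fasl at chr1:161780689-161788495 (minus strand), Cd40lg at chrX:57212143-57224042 (plus strand), and Ltb at chr17:35194439-35196320 (plus strand), 3061 bases from Tnf. Genes annotated on the other strand overlap Tnfrsf9 (Camta1), Tnfrsf18 (Gm16008) and Cd27 (Vamp1). Whether counting used strand is not stated, so reads of such pairs may not be told apart.

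Promoters from RefSeq (GRCm38.p6), each from 250 bases before to 50 bases after an annotated start, were matched to 7 of the 8 genes, Cd40lg being the one without an entry. Those of 4 genes are shown: the neighbours Tnfrsf4 and Tnfrsf18, whose levels across clusters were alike, and Tnfrsf9 and Tnfsf8, which carried the sex differences described further on. Each runs 5′ to 3′ on the strand of its gene, and capitals mark matches to the NF-kB motif and to the AP-1 motif TGANTCA, searched on both strands.
Tnfrsf4, chr4:156013445-156013744, plus strand: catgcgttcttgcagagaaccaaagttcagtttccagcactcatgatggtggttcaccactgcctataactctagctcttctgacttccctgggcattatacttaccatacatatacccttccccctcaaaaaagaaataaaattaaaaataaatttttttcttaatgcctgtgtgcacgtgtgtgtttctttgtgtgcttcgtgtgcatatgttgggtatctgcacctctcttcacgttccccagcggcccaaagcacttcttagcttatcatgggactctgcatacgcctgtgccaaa
Tnfrsf18, chr4:156026072-156026371, plus strand: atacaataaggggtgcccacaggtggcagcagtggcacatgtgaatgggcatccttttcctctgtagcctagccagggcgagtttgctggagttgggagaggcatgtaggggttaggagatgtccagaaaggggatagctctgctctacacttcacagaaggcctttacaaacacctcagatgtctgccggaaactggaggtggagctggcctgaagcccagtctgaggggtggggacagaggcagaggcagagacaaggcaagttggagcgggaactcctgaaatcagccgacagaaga
Tnfrsf9, second start, chr4:150927749-150928048, plus strand: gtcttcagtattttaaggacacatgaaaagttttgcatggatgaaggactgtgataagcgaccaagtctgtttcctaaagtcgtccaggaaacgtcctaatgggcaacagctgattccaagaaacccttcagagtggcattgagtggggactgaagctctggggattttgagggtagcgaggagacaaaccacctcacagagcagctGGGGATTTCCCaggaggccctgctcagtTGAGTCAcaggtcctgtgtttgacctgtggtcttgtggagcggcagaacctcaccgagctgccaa
Tnfsf8, chr4:63861235-63861534, minus strand: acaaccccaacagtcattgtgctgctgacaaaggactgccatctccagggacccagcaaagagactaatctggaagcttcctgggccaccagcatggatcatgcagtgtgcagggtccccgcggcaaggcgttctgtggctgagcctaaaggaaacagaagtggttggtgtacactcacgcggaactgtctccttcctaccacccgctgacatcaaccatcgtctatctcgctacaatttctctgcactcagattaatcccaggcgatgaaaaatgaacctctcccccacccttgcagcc
The second start of Tnfrsf9 held overlapping NF-kB matches, GGGGATTTCC and GGGATTTCCC, which begin 43 and 42 bases before the start, and an AP-1 match, TGAGTCA, which begins 15 bases before it. Ltb held an NF-kB match, GGAAAGTCCC, which begins 87 bases before its start. The other entries, among them the first start of Tnfrsf9, held neither set of letters. Of all 32851 promoter windows, 8.46% held an NF-kB match and 7.81% an AP-1 match, and a match is no measure of binding.

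The table held 26698 cells, 9955 from females and 16743 from males, in 6 libraries: 2, 5 and 6 from females and 1, 3 and 4 from males. Median UMIs per cell ran from 6397.5 to 10114.5 across libraries, and 84 barcodes occurred in more than 1 library, in 169 cells. Xist (log2 fold change −14.65, edgeR adjusted p = 5.69e-09) and the Y-linked Ddx3y (14.85, adjusted p = 5.79e-08) followed the sex labels. Of the 7 fixed CD8 T cell identity genes 5 were in the table, and their summed level per cluster ran from 2141 CPM in cluster 2 to 9763 CPM in cluster 6. Cd4 stayed at or below 0.953 CPM in every cluster as a mean over libraries.

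The authors' 11 clusters were named from marker lists. Clusters 0 and 8 were terminally exhausted-like by the summed level of that list (1846 and 1589 CPM), although none of its genes stood among their top 10. Cluster 4 was activated cytokine-producing-like and led by Il2, Il3 and Il13, clusters 3 and 5 proliferating-like, cluster 7 naive or central memory-like, cluster 9 interferon-stimulated-like and cluster 2 innate-like. Cluster 1, led by Fcgrt, Gzmm and Rap1gap2, stayed unnamed, and so did clusters 6 and 10, whose cells had medians of 1742 and 1461 UMIs and mitochondrial shares of 30.0% and 20.3%. Of the exhausted list, Pdcd1, Havcr2, Lag3, Entpd1 and Cd38 stood higher in cluster 6 than in clusters 0 and 8. Lag3 was at 1551 CPM in cluster 6 against 734 and 526 CPM, and Pdcd1 at 1021 against 523 and 457 CPM. Tigit, Tox and Cd101 in cluster 6 lay between their levels in clusters 0 and 8. The clusters were made from the same cells and genes, so the levels between them are a description with no test. Levels are CPM (UMIs of the gene scaled to a common total) of the sum per library and cluster, given as mean ± SD over the 6 libraries.

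Tnfrsf9, the CD137 gene, was highest in the low-UMI cluster 6 (1711 ± 321 CPM) and next in the activated cytokine-producing-like cluster 4 (1040.1 ± 132 CPM). It was lowest, at 137 ± 40.5 CPM, in cluster 7, whose cells were naive or central memory-like. In cluster 4 the libraries ran from 814.5 to 1155 CPM, and in cluster 7 from 93.7 to 185 CPM, so that every library of the one stood above every library of the other. In falling order the clusters were 6, 4, 0, 8, 5, 3, 10, 9, 1, 2 and 7. The neighbours 5 and 3, 10 and 9, and 2 and 7 did not differ in the same direction in all 6 libraries, and all other neighbours did. Both terminally exhausted-like clusters, 0 (786 ± 144 CPM) and 8 (685 ± 132 CPM), stood above both proliferating-like clusters, 5 (581 ± 94.2 CPM) and 3 (533 ± 88.6 CPM). Without the low-UMI clusters, cluster 4 was 7.58-fold above cluster 7, and 6.01-fold to 11.4-fold in single libraries.

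Tnfrsf4, the OX40 gene, set the exhausted-like clusters apart from the naive-like one by more than Tnfrsf9 did. It stood at 843 ± 367 CPM in cluster 6, 341 ± 141 CPM in cluster 8 and 316 ± 110 CPM in cluster 0, and at 15.8 ± 12.3 CPM in cluster 7 and 15.0 ± 10.8 CPM in cluster 2. The order ran 6, 8, 0, 3, 5, 4, 10, 9, 1, 7 and 2, and differences held in all 6 libraries only between 6 and 8, 0 and 3, 9 and 1, and 1 and 7. Cluster 8 was 22.7-fold above cluster 2, and the single libraries gave folds of 9.80 to 47.8. Female library 2 was the highest library in 10 of the 11 clusters, at 602 CPM in cluster 8 against 192 to 362 CPM in the other 5 libraries.

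Tnfrsf18, the GITR gene and neighbour of Tnfrsf4, followed the same broad order over a narrower range. It stood at 1099 ± 306 CPM in cluster 6, 485 ± 60.9 CPM in cluster 0 and 444 ± 87.5 CPM in cluster 8, and at 151 ± 11.2 CPM in cluster 7, the lowest. Between those, clusters 9, 3, 5, 4, 10, 1 and 2 ran from 323 down to 223 CPM with no neighbours that differed the same way in all 6 libraries. Cluster 0 was 3.22-fold above cluster 7 (2.80-fold to 4.05-fold in single libraries).

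Cd27, whose product costimulates naive as well as activated T cells, varied least. Outside cluster 6 (415 ± 42.6 CPM) it ran from 334 ± 27.9 CPM in cluster 4 and 310.0 ± 21.4 CPM in cluster 0 to 167 ± 20.7 CPM in the proliferating-like cluster 3, a 2.00-fold span (1.71-fold to 2.57-fold in single libraries). Cluster 7 stood at 187 ± 18.6 CPM, among the lower clusters but not apart from its neighbours 8 (210 ± 35.5 CPM) and 5 (185 ± 16.7 CPM).

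Tnfsf8, the CD30 ligand gene, was highest where Tnfrsf4 and Tnfrsf9 were lowest. It was highest in the naive-like cluster 7 (109 ± 13.6 CPM) and the innate-like cluster 2 (95.8 ± 7.32 CPM), then in the interferon-stimulated-like cluster 9 (53.8 ± 26.9 CPM), and lowest in the exhausted-like cluster 8 (4.16 ± 2.80 CPM). Its libraries in cluster 7 lay between 88.3 and 124 CPM and those in cluster 8 between 1.88 and 7.82 CPM, a 26.3-fold difference of means with single libraries at 14.6-fold to 57.2-fold. After cluster 9 came 10, 6, 4, 1, 0, 3, 5 and 8, where 1 stood above 0, 0 above 3 and 5 above 8 in all 6 libraries. Tnfsf8 is among the 10 leading genes of cluster 7 by fold over the other clusters.

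Fasl, a death ligand of cytotoxic cells, was at 315 ± 61.4 CPM in cluster 6, 188 ± 14.8 CPM in the activated cluster 4 and 173 ± 14.2 CPM in cluster 0, and at 38.5 ± 10.4 CPM in cluster 7. Clusters 0, 1, 8, 10, 9 and 5 (173 to 121 CPM) formed a row of neighbours without a difference that held in all libraries, followed by 3 (98.2 CPM), 2 (72.4 CPM) and 7, each below the one before in all 6. Cluster 4 was 4.89-fold above cluster 7 (3.85-fold to 6.45-fold in single libraries).

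Ltb, the lymphotoxin beta gene, was lowest in the activated cytokine-producing-like cluster 4 (226 ± 63.4 CPM), where Tnfrsf9, Cd27 and Fasl were at their highest among the 9 clusters with more UMIs. It stood at 1019 ± 119 CPM in cluster 6, 623 ± 85.0 CPM in cluster 8, 578 ± 66.6 CPM in cluster 9 and 421 ± 25.9 CPM in cluster 7. Cluster 8 was 2.75-fold above cluster 4, with single libraries at 1.53-fold to 4.70-fold. In cluster 4 female library 5 stood at 344 CPM and the other 5 libraries at 157 to 235 CPM.

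Cd40lg was close to the limit of detection, with 707 UMIs in all clusters, 346 of them in cluster 4. Its level there was 11.3 ± 6.18 CPM and ran from 5.62 to 20.9 CPM, with female library 2 the highest. Cluster 7 held 1 UMI, and no neighbouring clusters in its order differed in the same direction in all libraries.

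**Figure D1:**
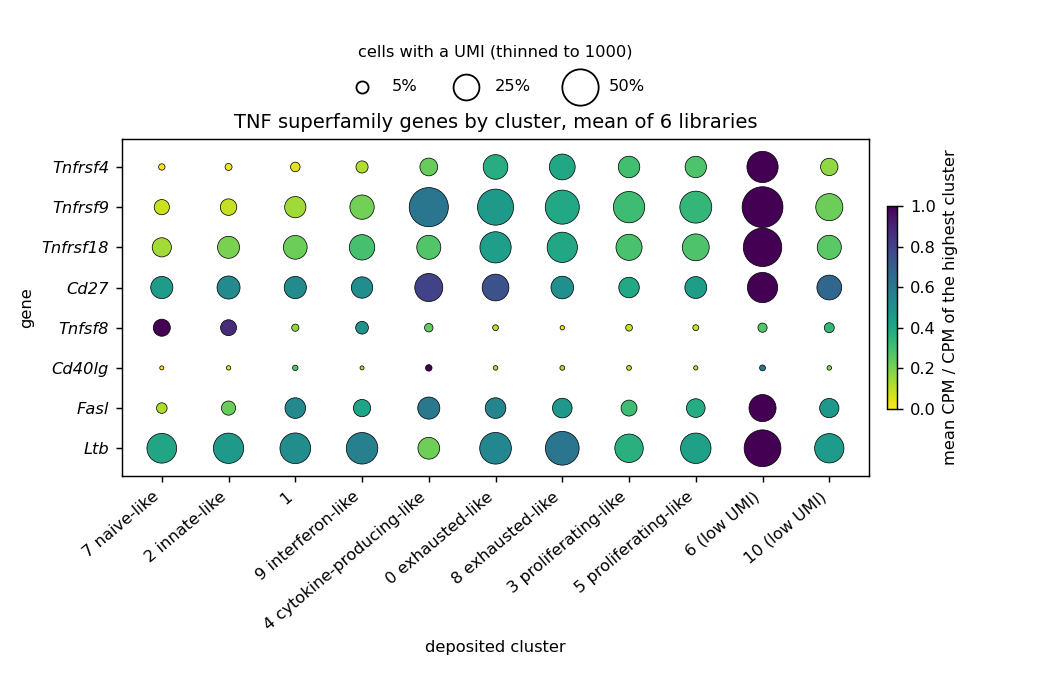
The dot plot shows the 8 genes (rows) in the 11 deposited clusters (columns), with colour for the mean CPM over 6 libraries relative to the gene's highest cluster and dot size for the percent of cells with a UMI after thinning to 1000 UMIs per cell. The row of Tnfsf8 peaks in clusters 7 and 2 (109 and 95.8 CPM), where Tnfrsf4 and Tnfrsf9 are at their lowest.

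In all, 6 of the 8 genes were highest in cluster 6, which also held the highest summed level of the CD8 identity genes and the highest mitochondrial share. Its cells held few UMIs, so Tnfrsf9 came to 3.86 UMIs per cell there against 8.58 in cluster 0 and 15.1 in cluster 3. The part of cell quality in the levels of clusters 6 and 10 was not tested.

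Shares of cells with at least 1 UMI gave the same picture once each cell was thinned to 1000 UMIs. Tnfrsf9 was detected in 58.0% of cells in cluster 4, 49.2% in cluster 0 and 8.26% in cluster 7 as means over libraries (94.5% in cluster 4 and 30.8% in cluster 7 without thinning). Tnfsf8 was detected in 10.5% of cells in cluster 7, 9.10% in cluster 2 and 0.11% in cluster 8 (51.6% in cluster 7 and 3.83% in cluster 8 without thinning). The thinned share in cluster 8 rested on 2 of 1695 cells. Tnfrsf4 was found in 24.9% of cells in cluster 8 against 0.93% in cluster 7, and Ltb in 43.0% against 17.5% between clusters 8 and 4. In cluster 4 Fasl was found in 18.1% of cells and Cd40lg in 0.98%. The low-UMI cluster 6 held the highest thinned shares of Tnfrsf9 (63.3%), Tnfrsf4 (36.8%), Ltb (51.3%) and Fasl (27.5%). Free RNA adds to such shares, and the sort left no cell type that should lack the genes and could give its size.

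The profiles over the 11 clusters, as log2(CPM + 1) averaged over the same 6 libraries, grouped the 3 activation receptors. Pearson's r was 0.95 between Tnfrsf4 and Tnfrsf9, 0.85 between Tnfrsf4 and Tnfrsf18 and 0.86 between Tnfrsf9 and Tnfrsf18. With Tnfsf8 it was −0.69 for Tnfrsf4, −0.58 for Tnfrsf9 and −0.42 for Tnfrsf18, and −0.86, −0.75 and −0.77 without clusters 6 and 10. These r values describe 11 points that share libraries and carry no test.

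Among 8516 genes, those with the profile most like each member were named by the same measure. For Tnfrsf4 they were Fam213a, Slc16a3 and Sv2c (r = 0.98 each), and for Tnfrsf9 Il12rb2 (0.98), which encodes an interleukin-12 receptor chain, with Gpr65 and Ptger2 (0.97 each). Tnfrsf18 had Ggta1 (0.97), Crlf2 and Pigs (0.96 each), and Cd27 had Nrip1 (0.96), Hiat1 and Sgpl1 (0.93 each). Tnfsf8 was near to Plaur (0.97) and to Cxcr5 (0.96), a chemokine receptor gene of follicular lymphocytes. Fasl was near to Rab8b (0.97) and Slamf7 (0.96), Cd40lg to Ptger4 (0.95), Plxnc1 (0.93) and Furin (0.92), and Ltb to Plgrkt (0.95), Abhd16a (0.94) and Paqr7 (0.93). The choice was unstable: of 24 genes chosen, 3 per member, 6 were chosen again by Spearman's rho and 3 without clusters 6 and 10.

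Compared within clusters and pooled over them, detection of Tnfrsf4, Tnfrsf9 or Tnfrsf18 went with detection of the others in the same cell. With cells thinned to 1000 UMIs and odds ratios pooled over clusters within each library, Tnfrsf4 and Tnfrsf18 had odds ratios of 1.59 to 2.05 over the 6 libraries. In cluster 0, 46.9% ± 3.53 of cells with a Tnfrsf4 UMI had a Tnfrsf18 UMI, against 33.7% ± 2.37 of cells without (SD, n = 6). The pairs with Tnfrsf9 differed little in cluster 0. Tnfrsf9 was found in 52.0% ± 4.27 of cells with a Tnfrsf4 UMI and 48.3% ± 4.91 of those without. Tnfrsf18 was found in 37.6% ± 4.01 of cells with a Tnfrsf9 UMI and 35.9% ± 3.14 of those without. Thinned to 2000 UMIs, these shares were 69.4% against 69.6%, and 58.8% against 56.5%. Tnfrsf4 and Tnfrsf9 had odds ratios of 1.14 to 1.74, and Tnfrsf9 and Tnfrsf18 of 1.10 to 1.55. Tnfrsf4 and Cd27 did not go together (0.754 to 1.03). Of 21 pairs, 6 were above 1 in all 6 libraries, the others being Tnfrsf4 with Ltb (1.11 to 1.56), Tnfrsf18 with Ltb (1.02 to 1.32) and Cd27 with Fasl (1.13 to 1.30). Tnfsf8 was part of all 3 pairs below 1 in all libraries, with Tnfrsf9 (0.54 to 0.93), Cd27 (0.40 to 0.99) and Fasl (0.29 to 0.99). Thinned to 2000 UMIs, 9 pairs were above 1 in all libraries and 2 below, Tnfrsf9 with Tnfsf8 (0.438 to 0.724) and Tnfrsf9 with Ltb (0.778 to 0.989). These are descriptions over cells, which are not replicates.

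The study's comparison set the sexes against each other, first over all cells outside the innate-like cluster 2. Fold changes are from edgeR's quasi-likelihood test on sums per library, coded male minus female on the log2 scale, and a gene was called at a Benjamini-Hochberg adjusted p under 0.05 over all genes tested. None of the 8 genes was called by edgeR, DESeq2 or limma-voom, with 2, 2 and 1 of them at an unadjusted p under 0.05. Over all 12194 genes edgeR called 0.0902%. P-values measure the spread between these libraries.

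Tnfsf8 stood at 12.8, 6.95 and 13.3 CPM in female libraries 2, 5 and 6 and at 37.1, 25.4 and 19.9 CPM in male libraries 1, 3 and 4. Every male library lay above every female library, as was so for 6.99% of genes. The means were 11 ± 3.52 and 27.5 ± 8.80 CPM (n = 3 each), or 1.34 on the log2 scale (SE 0.32). This did not pass the test (edgeR adjusted p = 0.314, unadjusted p = 0.00514). The cells of cluster 7, where Tnfsf8 was highest, differed in number too, and made up 4.36%, 2.55% and 4.53% of female and 11.3%, 8.20% and 5.90% of male libraries. Cluster 2, left out of these sums, held Tnfsf8 at 95.8 CPM. Clusters 2 and 7 together made up 11.5%, 6.96% and 15.9% of female and 30.4%, 23.5% and 16.4% of male libraries. With every cluster but cluster 2 given the same weight in every library, on the log2(CPM + 1) scale, the difference was 0.78 (limma adjusted p = 0.359).

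Tnfrsf9 stood at 822, 706 and 575 CPM in the female and 479.5, 565 and 589 CPM in the male libraries. The ranges overlapped, female library 6 lying below male library 4, and the log2 fold change was −0.37 (SE 0.16, edgeR adjusted p = 0.583). Beside it, the summed level of the exhausted list (8 of 8 genes, none at 0) was 1118 to 1449 CPM in female and 937 to 1232 CPM in male libraries, and its part in the result was not tested.

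Tnfrsf4 was 403, 229 and 153 CPM in females and 170.3, 242 and 240.1 CPM in males, with female library 2 far above the rest. Its log2 fold change of −0.28 (SE 0.41, adjusted p = 0.895) became 0.21 without that library. Tnfrsf18, at 462, 358 and 289 CPM against 307, 366 and 336 CPM, was led by the same library and went from −0.14 to 0.08 without it. Cd27 (0.07), Fasl (−0.12), Ltb (0.03) and Cd40lg (−0.37) had overlapping ranges and adjusted p-values of 0.823 to 0.968. Cd40lg rested on 696 UMIs, and female library 2 held 4.89 CPM against 1.78 to 3.02 CPM in the others.

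**Figure D2:**
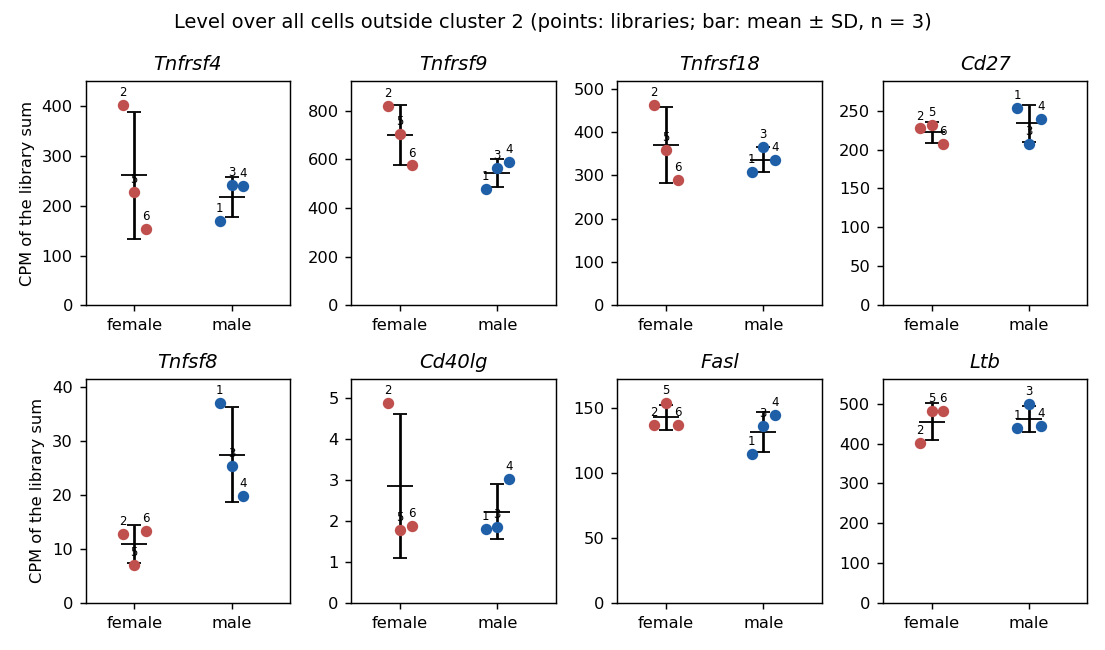
Each panel plots 1 gene's CPM per library over all cells outside cluster 2, with female and male libraries side by side, library numbers above the points, and bars for the mean ± SD of 3 libraries. Only in the panel of Tnfsf8 do the male libraries (19.9 to 37.1 CPM) all lie above the female ones (6.95 to 13.3 CPM).

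The share of cells with a UMI, thinned to 1000 UMIs, did not overlap between the sexes for Tnfrsf9, Tnfsf8 and Fasl, as was so for 14.6% of genes. It was 46.6%, 44.7% and 39.0% in female and 30.4%, 35.0% and 34.5% in male libraries, a mean of 43.4% ± 3.92 against 33.3% ± 2.55 (SD, n = 3 each, exact two-sided permutation p = 0.10, the smallest that 3 against 3 allows). Tnfsf8 was found in 1.38%, 0.876% and 1.83% of cells in females and 4.27%, 3.05% and 2.23% in males (exact permutation p = 0.10). Without thinning, the means were 82.4% and 69.0% for Tnfrsf9 and 7.69% and 16.1% for Tnfsf8. For Fasl the shares were 15.8% ± 0.907 and 13.6% ± 1.06 (exact permutation p = 0.10), while thinning to 2000 UMIs brought the libraries into overlap (exact permutation p = 0.40). All 8 genes were compared in this way, and this design cannot reach a p under 0.05.

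Within single clusters the same edgeR test gave 4 calls among the members, 3 of them for Tnfsf8. In the terminally exhausted-like cluster 0, Tnfsf8 stood at 7.17, 4.58 and 8.10 CPM in females and 18.8, 13.6 and 14.4 CPM in males. In the unnamed cluster 1 it was 10.3, 7.05 and 14 CPM against 31.7, 30.5 and 18.0 CPM. In the proliferating-like cluster 3 it was 5.15, 4.13 and 6.48 CPM against 17.9, 12.5 and 11 CPM. In each of these clusters all 3 male libraries lay above all 3 female libraries, as was so for 5.42%, 8.56% and 6.19% of genes in clusters 0, 1 and 3. The log2 fold changes were 1.30 in cluster 0 (SE 0.20, adjusted p = 0.0174), 1.48 in cluster 1 (SE 0.29, adjusted p = 0.0160) and 1.41 in cluster 3 (SE 0.21, adjusted p = 0.0181). The test called 0.139% of all genes in cluster 0, 3.8% in cluster 1 and 0.142% in cluster 3. In the other clusters it called 0.358% (cluster 2), 0.105% (4), 0.0979% (5), 0.181% (6), 0.168% (7), 0.0968% (8), 3.41% (9) and 0.274% (10).

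Where Tnfsf8 was highest, in clusters 7 and 2, the sexes overlapped. Cluster 7 held 99.6, 88.3 and 124 CPM in females and 114, 121 and 108 CPM in males, a log2 fold change of 0.21, and cluster 2 had one of 0.12. In the other clusters the fold changes were 0.96 in cluster 4 (adjusted p = 0.338), 1.13 in 5, 0.92 in 6, 1.10 in 8 and 1.24 in 9 (adjusted p = 0.155), none of them called by edgeR, and cluster 10 was not tested by it after its filter on low counts. In cluster 9 DESeq2 (adjusted p = 0.00691) and limma-voom (0.0125) did call it, and in cluster 4 DESeq2 did (0.0327) and limma-voom did not (0.258). With no filter edgeR called it in clusters 4 (0.00952), 9 (5.69e-08) and 10 (1.94 on the log2 scale, 0.0112). That setting called 23 of 13877 genes in cluster 4, 506 of 13236 in cluster 9 and 16 of 12275 in cluster 10. The mean of Tnfsf8 was higher in males in 11 of 11 clusters, as was so for 3.06% of the 4020 genes with enough counts in every cluster. All its male libraries lay above all female libraries in 7 of the 11, and 0.224% of those genes had that in at least 7. The clusters of a library share its source, so they are not independent repeats.

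Marker lists moved with Tnfsf8 in some of these clusters. The summed naive or central memory list (8 of 8 genes, none at 0) was 1091 to 1444 CPM in females and 1445 to 1988 CPM in males in cluster 1, and the exhausted list 550.3 to 956 and 331 to 446 CPM. In cluster 1 the regulatory T cell list (5 of 5) was 324 to 391 and 236 to 298 CPM, the CD4 T cell list (2 of 2) 16.2 to 21.9 and 8.98 to 14.7 CPM, and the natural killer list (10 of 11) 1013 to 1264 and 873 to 918 CPM, none with a gene at 0. As means over libraries in cluster 1, Cd4 itself stood at 0.0281 CPM and Zbtb7b, also on the CD4 list, at 15.7 CPM. Of the regulatory list, Foxp3 stood at 1.48 CPM, Ctla4 at 217 CPM and Ikzf2 at 60.4 CPM. In cluster 0 the progenitor exhausted list (7 of 7, none at 0) was 613 to 728 CPM in females and 747 to 859 CPM in males, and the fibroblast or endothelial list (3 of 4) 4.45 to 5.81 and 6.67 to 11.1 CPM. As means over libraries in cluster 0, Pdcd1, which is on the exhausted list too, stood at 523 CPM. Tcf7 stood at 24.7 CPM, Bcl6 at 4.72 CPM and Id3 at 3.84 CPM. Of the fibroblast or endothelial list, Pecam1 stood at 7.10 CPM, Col1a1 at 0.158 CPM and Cdh5 at 0.0143 CPM. The naive list was 416 to 650 and 583 to 633 CPM in cluster 0, and 359 to 500 and 442 to 506 CPM in cluster 3, where the ranges overlapped. Median UMIs per cell were 9803.5 in females and 8666 in males in cluster 0, 6687 and 4814 in cluster 1, and 25354 and 22782 in cluster 3. The part of these lists and medians in the result was not tested. Neither was that of the shares of clusters 2 and 7 in each library. Each call depended on libraries: the one in cluster 0 was lost without male library 1 (adjusted p = 0.0513), male library 4 (0.0683) or female library 5 (0.0839). That in cluster 1 was lost without female library 2 (0.0698) or 5 (0.113), and that in cluster 3 without female library 2 (0.0879), 5 (0.0960) or 6 (0.0662) and with limma-voom (0.0583).

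Tnfrsf9 was lower in males in the naive or central memory-like cluster 7, where it was rarest. It stood at 160.0, 174 and 185 CPM in females and 93.7, 100.4 and 110 CPM in males, with a gap between the sexes larger than the range within either. All female libraries lay above all male libraries for 8.1% of genes in this cluster. The log2 fold change was −0.70 (SE 0.12, edgeR adjusted p = 0.00173), against 0.168% of genes called in that cluster, and the call was lost without male library 1 (adjusted p = 0.0798). In the same cells the exhausted list summed to 115 to 252 CPM in females and 68.7 to 118 CPM in males, and the activated cytokine-producing list to 263 to 341 and 256 to 323 CPM. Without overlap were the proliferating list (12 of 12), at 286 to 364 CPM in females and 230 to 255 CPM in males, and the myeloid list (8 of 8), at 11.1 to 20.3 and 7.90 to 8.92 CPM. Their part in the result was not tested.

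In other clusters the Tnfrsf9 difference did not pass in edgeR with its filter on low counts. The log2 fold change was −1.01 in cluster 9 (574, 515 and 391 CPM in females, 155, 280.0 and 272 CPM in males, adjusted p = 0.0600), −0.79 in cluster 1, −0.38 in cluster 0 and −1.01 in cluster 2 (adjusted p = 0.567). DESeq2 (adjusted p = 0.000242 and 0.000143) and limma-voom (0.00378 and 0.0120) did call it in clusters 9 and 2, and limma-voom in cluster 1 (0.0372). With no filter edgeR called Tnfrsf9 in clusters 9 (3.41e-10) and 2 (2.94e-07) as well, where that setting called 506 of 13236 and 66 of 13804 genes. In cluster 9 the exhausted list summed to 873 to 1173 CPM in females and 378 to 591 CPM in males, and the naive or central memory list to 701 to 1239 and 1355 to 1839 CPM. The regulatory T cell list (5 of 5) was at 609 to 680.0 and 456 to 514 CPM and the CD4 T cell list (2 of 2) at 15.1 to 17.7 and 6.30 to 12.8 CPM. As means over libraries in cluster 9, Cd4 stood at 0.346 CPM against Zbtb7b at 12.6 CPM. Foxp3 stood at 3.66 CPM against Ctla4 at 274 CPM and Ikzf2 at 234 CPM. The part of these lists was not tested. The mean of Tnfrsf9 was lower in males in 11 of 11 clusters (6.22% of the 4020 genes). All its female libraries lay above all male libraries in 6 of 11, clusters 0, 2, 6, 7, 9 and 10, and 1.07% of those genes had that in at least 6.

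**Figure D3:**
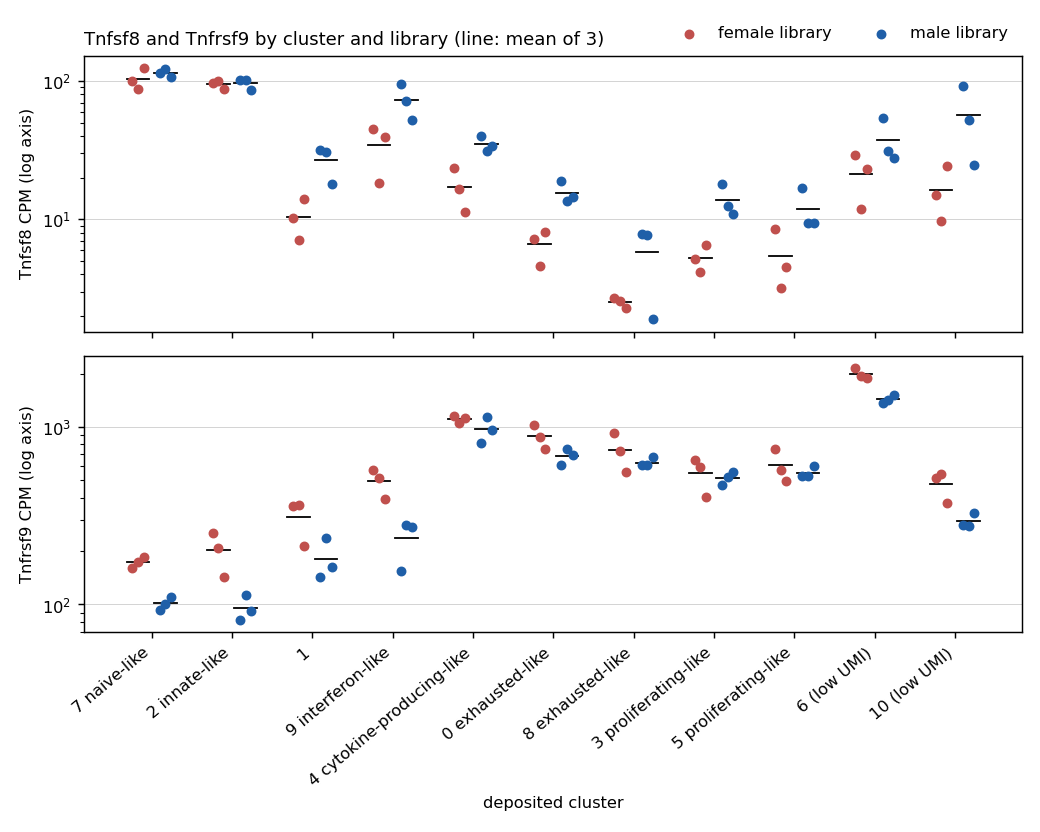
The CPM of Tnfsf8 and Tnfrsf9 (log axis) are plotted per cluster, with 1 point per library coloured by sex and a line at the mean of 3 libraries. For Tnfsf8 the sexes part in clusters 0, 1 and 3 and overlap in clusters 2 and 7, and for Tnfrsf9 in cluster 7 the female points (160.0 to 185 CPM) lie above the male ones (93.7 to 110 CPM).

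Tnfrsf4 in cluster 7 also had no overlap, at 34.9, 27.9 and 9.63 CPM in females and 5.95, 7.27 and 9.34 CPM in males, as was so in that direction for 8.1% of genes. It rested on 156 UMIs, and its log2 fold change of −1.72 (SE 0.39) did not pass in edgeR (adjusted p = 0.242) but did in DESeq2 (0.0134). Limma-voom did not call Tnfrsf4 there (0.102), while edgeR with no filter did (1.64e-07), a setting that called 42 of 13387 genes in cluster 7. Across clusters, the mean of Tnfrsf4 was lower in males in at least 10 of 11, like that of 15.5% of genes. Tnfrsf18, Cd27, Fasl and Ltb, tested in all 11 clusters, and Cd40lg, tested in 3, had no call by edgeR, DESeq2 or limma-voom. An unadjusted edgeR p under 0.05 was found in 1 cluster for Tnfrsf18, 1 for Cd27, 3 for Fasl, 0 for Ltb and 0 for Cd40lg.

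**Figure D4:**
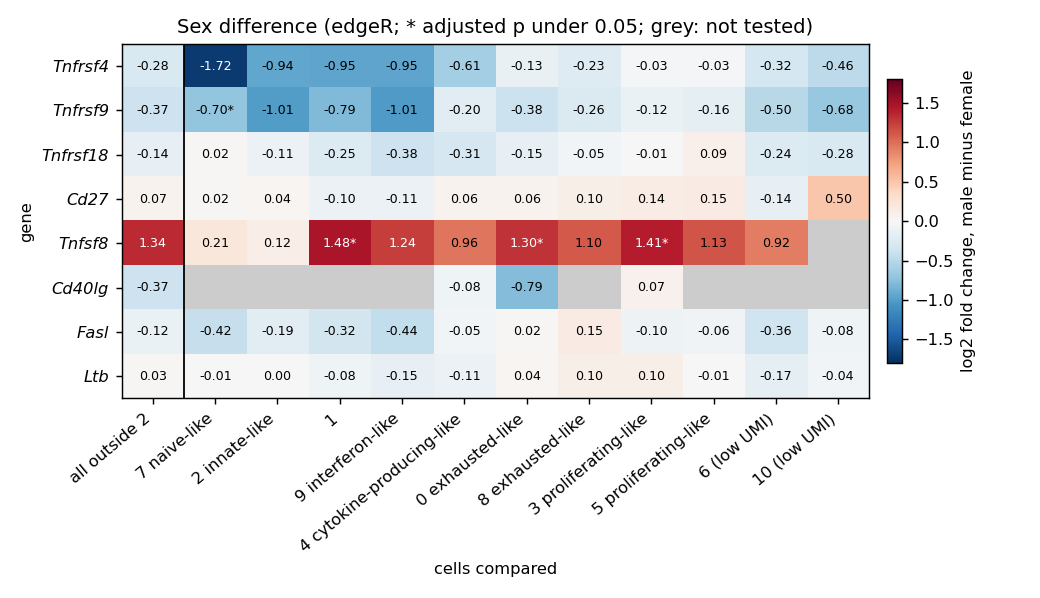
The heat map gives the log2 fold change, male minus female, of each gene (rows) over all cells and in each cluster (columns), with an asterisk for an adjusted p under 0.05 and grey for combinations that were not tested. The 4 asterisks are Tnfsf8 in clusters 0, 1 and 3 (1.30, 1.48 and 1.41) and Tnfrsf9 in cluster 7 (−0.70).

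A model with the library as a block asked whether the sex effect itself differed between clusters, cluster 2 left out. It called Fasl (adjusted p = 0.00723), Tnfrsf9 (adjusted p = 0.00810) and Tnfrsf4 (adjusted p = 0.0410) in edgeR, 3 of the 8 members, against 1.92% of 10810 genes. For Fasl the direction changed with the cluster. Females were higher in cluster 1, with 169.8, 218 and 173 CPM against 141, 141 and 159.6 CPM, and in cluster 9, with 155, 169 and 135 CPM against 92.3, 117 and 117 CPM. Males were higher in the exhausted-like cluster 8, with 157, 152 and 159 CPM against 127, 150.1 and 139.8 CPM in females. In these 3 clusters the sexes did not overlap, as was so in the same direction for 12.9% of genes in cluster 1, 13.5% in cluster 9 and 4.96% in cluster 8. The log2 fold changes were −0.32, −0.44 and 0.15, and none passed within its cluster (adjusted p = 0.113, 0.0932 and 0.999).

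For Tnfrsf9 the log2 fold change ran from −1.01 in cluster 9 to −0.12 in the proliferating-like cluster 3, and for Tnfrsf4 from −1.72 in cluster 7 to −0.03 in the proliferating-like cluster 5. Tnfsf8 was not called in the interaction (adjusted p = 0.185), so its sex effect was not shown to differ between clusters. It was called without male library 4 (adjusted p = 0.00556). Cd27 (0.227), Tnfrsf18 (0.281), Cd40lg (0.837) and Ltb (0.991) were not called, although Tnfrsf18 was without female library 2 (0.0324). With cluster 7 set against clusters 0 and 8 in the same fit, none of the 8 was called (0.0278% of genes were; 733 genes had an unadjusted p under 0.05). These calls were not robust to the choice of libraries. Without male library 1 or female library 5 no member was called. Fasl was lost without male library 1 (adjusted p = 0.0914) or 4 (0.0544) and without female library 2 (0.0626) or 5 (0.0639), Tnfrsf9 without the same libraries (0.198, 0.130, 0.0501 and 0.231), and Tnfrsf4 in 7 of 8 alternatives (up to 0.412).

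**Figure D5:**
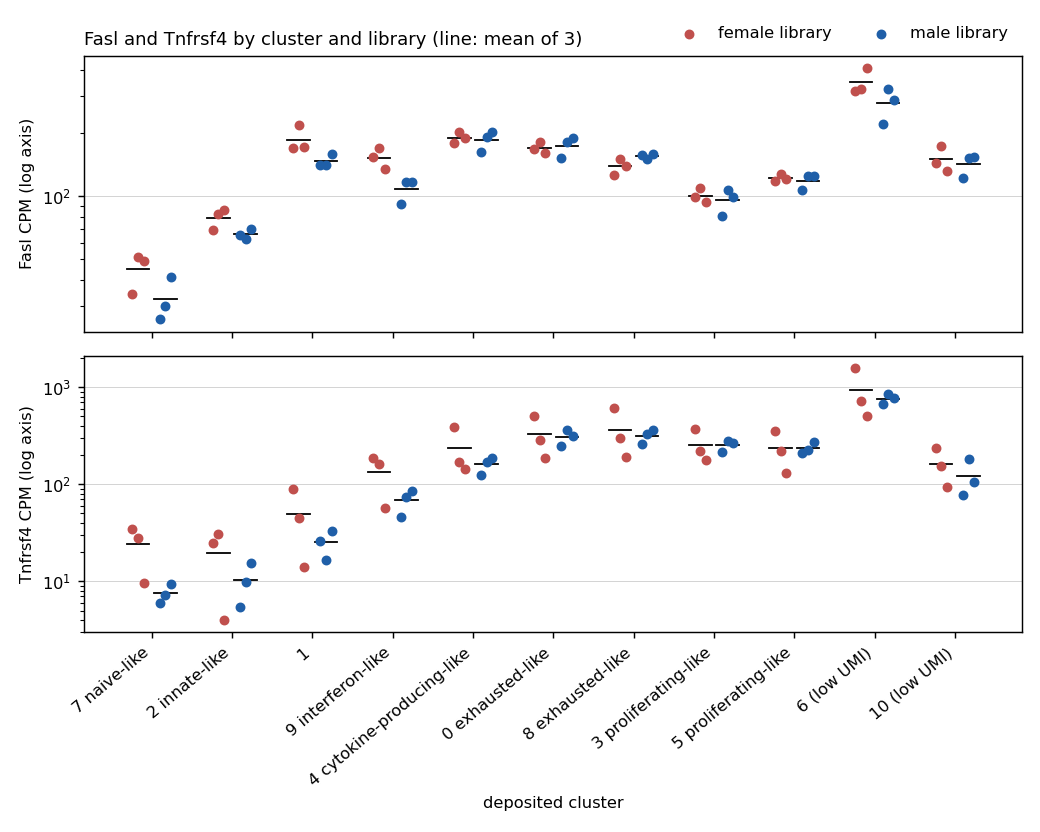
The CPM of Fasl and Tnfrsf4 (log axis) are plotted per cluster, with 1 point per library coloured by sex and a line at the mean of 3 libraries. Female Fasl points lie above male ones in clusters 1 and 9 and below them in cluster 8, and Tnfrsf4 in cluster 7 shows female points at 9.63 to 34.9 CPM and male points at 5.95 to 9.34 CPM.

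Binding partners of the members were read from a fixed list of 11, of which 10 were in the table and 8 were tested over all cells. Tnfsf18, the GITR ligand gene, was not in the table. None of the tested partners was called by edgeR, DESeq2 or limma-voom, with 2, 3 and 2 of them at an unadjusted p under 0.05. In edgeR 3 of 8 were higher in males, at a median log2 fold change of −0.09 beside 0.004 for all genes. Tnfsf9, the CD137 ligand gene, stood at 21.6, 18.5 and 19.6 CPM in females and 13.2, 18.5 and 15.7 CPM in males, a difference of −0.33 that did not pass (adjusted p = 0.567). Fas, the receptor of Fas ligand, differed by 0.40 (adjusted p = 0.448), and Tnfsf4, the OX40 ligand gene, by 1.18 on 686 UMIs (0.664). Tnfrsf8, the CD30 gene, stood at −0.41, Cd70, the CD27 ligand gene, at −0.08, Lta at −0.10, Tnfsf14, which encodes LIGHT, at −0.11 and Tnfrsf14, a receptor of LIGHT, at 0.04 on 83 UMIs, with adjusted p-values of 0.721 to 0.999. Cd40 and Ltbr, receptors of CD40 ligand and lymphotoxin beta, had 15 and 41 UMIs and were not tested.

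By cluster, Tnfsf9 was highest where its receptor gene Tnfrsf9 was. It was at 46.7 CPM in cluster 6, 24.9 CPM in cluster 4 and 3.48 CPM in cluster 7, where Tnfrsf9 was at its lowest. Tnfsf14, one of the 10 leading genes of cluster 4, stood at 74.4 CPM there and at 6.19 to 22.5 CPM elsewhere. Fas ran from 7.0 CPM in cluster 8 to 27.5 CPM in cluster 4, Lta from 6.26 to 20.5 CPM, and Cd70 from 0.06 CPM in cluster 7 to 5.64 CPM in cluster 6. Tnfrsf8, the receptor of CD30 ligand, stayed at or below 4.96 CPM and Tnfsf4 at or below 7.55 CPM in every cluster.

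Of 27 other superfamily genes on a fixed list, 22 were in the table and 17 tested, with 11 higher in males and none called over all cells by the 3 tools (2 by edgeR, 3 by DESeq2 and 2 by limma-voom at an unadjusted p under 0.05). Their median was 0.13. Those with the smallest p were Tnfrsf25 (0.98), the DR3 gene, Tnfrsf26 (0.86), Tnfrsf13b (−0.22) and Tnf (−0.39), with adjusted p-values of 0.397 to 0.684. In the interferon-stimulated-like cluster 9, where 3.41% of genes were called, Tnf was lower in males (−1.22, adjusted p = 0.00707). So was Tnfrsf1b, the second TNF receptor gene, at 114, 113 and 119 CPM in females and 66.2, 59.5 and 86.1 CPM in males (−0.64, adjusted p = 0.0123). The call of Tnf was lost without male library 1 (0.0541), and that of Tnfrsf1b without male library 1 (0.0772) or 3 (0.0829) or female library 5 (0.0623). The activated cytokine-producing list, 8 of 8 genes, none at 0, summed to 1647 to 6055 CPM in females and 482 to 1133 CPM in males in cluster 9, and its part in these results was not tested.

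All 32 genes of the signalling list, adaptors and NF-kB and death pathway components, were tested, and 22 were higher in males at a median of 0.04. None was called over all cells by the 3 tools (3, 4 and 3 at an unadjusted p under 0.05 in edgeR, DESeq2 and limma-voom). Nfkbie (0.32), which encodes an NF-kB inhibitor, Relb (0.30), an NF-kB subunit gene, Map3k14 (0.24), the gene of NF-kB-inducing kinase, and Daxx (0.17) had the smallest p, with adjusted p-values of 0.246 to 0.597. Within clusters, Ikbkb, which encodes an IkB kinase subunit, was higher in males in cluster 1 (0.45, adjusted p = 0.0280), where 3.8% of all genes were called. That call was lost without male library 1 (0.185) or 4 (0.0631) and without female library 2 (0.107) or 5 (0.180). In the interaction over clusters, Traf1, an adaptor gene downstream of CD137, was called (adjusted p = 0.00810), and so was Tnfrsf1b (adjusted p = 0.0111). Traf1 stood at 223, 204 and 184 CPM in females and 163, 166 and 173 CPM in males in cluster 1, and at 239, 253 and 216 CPM against 299.8, 281 and 289 CPM in cluster 6. The sexes did not overlap in either, as was so in the same direction for 12.9% and 5.14% of genes.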

How the data were processed

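Per the labels, single CD8 T cells from MB49 tumours were processed with a 10x Genomics 3-prime kit. Cell Ranger, Seurat and the build mm10 are named, without versions, in the submitters' processing notes. The values the authors deposited are raw UMI counts per gene and cell, and, in other units, per-cell metadata with host sex and cluster. UMI totals and gene numbers matched the table in all 26698 cells, and 423 genes had no count. How cells were filtered and doublets treated is not stated in the sources used here, and no doublets were removed here. Libraries were told apart by the numeral behind the barcode, and each held cells of 1 sex.

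Counts were summed per library over cells outside cluster 2 (23820769 to 62292575 UMIs), and per library and cluster (at least 20 cells, smallest 93). Sums were tested with edgeR 4.0.16 in R 4.3.3 (quasi-likelihood, robust, edgeR's filter on low counts, TMM, Benjamini-Hochberg over genes). DESeq2 1.42.0, limma-voom (limma 3.58.1), DESeq2 size factors, no filter, leaving out each library, shared barcodes or clusters 6 and 10, keeping cluster 2 and an equal cluster mix were alternatives. Standard errors are the fold change over the root of F. Levels are CPM of the sums without TMM factors. Cells were thinned to 1000 UMIs (2000 or none as alternatives); 73 female and 169 male cells had fewer. Shares of genes whose sexes do not overlap are over genes with a mean of at least 10 UMIs per sum, or 10 cells per library for shares of cells.

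The text names all 8 members, the measured partners, up to 4 genes of the other 2 lists with the smallest p and any called, and the 3 genes with the profile most like each member (mean of at least 10 CPM in a cluster). Of the genes this rule chose, 3 are not reported here. The members and lists were chosen with earlier results of these data known. Symbols were matched to GENCODE M21 and RefSeq promoters, both GRCm38, the build of mm10. The simulated-data test of the scripts is not quoted.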

Additional observations from a re-analysis of the deposited data

Results flagged for a closer look

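For 5 genes the sex effect differed between clusters in edgeR's test of that difference itself: Fasl (adjusted p = 0.00723), Traf1 (0.00810), Tnfrsf9 (0.00810), Tnfrsf1b (0.0111) and Tnfrsf4 (0.0410), against 1.92% of all genes. Fasl was higher in females in clusters 1 and 9 and higher in males in cluster 8, and Traf1 was higher in females in cluster 1 and in males in cluster 6, each without overlap. In the same directions 12.9% of genes did not overlap in cluster 1, 13.5% in cluster 9, 4.96% in cluster 8 and 5.14% in cluster 6. Neither gene was called by edgeR within these clusters. Traf1 was lost without male library 1 (adjusted p = 0.287), female library 2 (0.0706) or female library 5 (0.148), and Tnfrsf1b without male library 1 (0.115) or 3 (0.117) or female library 2 (0.0983) or 5 (0.0870). The calls of Fasl and Tnfrsf9 were each lost in 4 of 8 alternatives, and that of Tnfrsf4 in 7 of 8.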

How the results depend on the processing

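No paired analysis was possible because the library numbers in the table are not tied to the labels' replicate numbers. Over all cells the 11 genes called became 127 with DESeq2, and no setting called a member. Within clusters, 751 genes were called, summed over clusters, 1434 with no filter on low counts and 232 to 1262 without 1 library. The 4 member calls became 10 with no filter, 9 with DESeq2, 7 with limma-voom, and 1 (without female library 5) to 11 (without female library 6) without 1 library. The interaction called 208 genes and 3 members, and 32 to 240 genes and 0 to 3 members without 1 library. Cluster 7 against clusters 0 and 8 gave 3 genes, 7 with DESeq2 size factors and 0 to 5 without 1 library. Of the 24 genes chosen by profile, 6 were shared with Spearman's rho and 3 without clusters 6 and 10.

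Uncalled log2 fold changes over all cells that changed sign without 1 library were Tnfrsf4 (−0.57 to 0.21), Tnfrsf18 (−0.32 to 0.0771), Cd27 (−0.0104 to 0.13), Cd40lg (−0.65 to 0.32), Ltb (−0.0580 to 0.0720), Cd70 (−0.29 to 0.27), Lta (−0.29 to 0.0749) and Tnfrsf14 (−0.0580 to 0.18). With the same cluster mix Ltb was −0.0493 and Cd70 0.0268. The difference in the percent of cells with a UMI, male minus female, ran from −1.28 to 0.534 for Cd27 and −0.514 to 2.02 for Ltb without 1 library, and was −0.400 for Ltb without thinning. Tnfsf8 over all cells kept its direction in every setting, with adjusted p-values of 0.0509 to 0.759. The cause of these moves was not tested. Depth limits Cd40lg and the partners with fewer UMIs, Tnfsf4, Cd70, Tnfrsf8, Tnfrsf14, Ltbr and Cd40. Leaving out the shared barcodes kept 4 member calls.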
